A study of Mus musculus with 6 samples.

Results

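The genes described here encode the nuclear lamina and the high mobility group (HMG) chromatin proteins whose levels are used to follow senescence: Lmna, Lmnb1, Lmnb2, Lbr, Tmpo, Hmgb1, Hmgb2, Hmga1 and Hmga2. They were chosen by symbol, 9 of the 24062 genes in the deposited table of read counts, and all 9 had enough reads to be among the 14090 genes tested. The cells were mouse embryonic fibroblasts, connective tissue cells grown from embryos, of strain C57BL/6. One group, p27 OE (3 libraries), carried a lentivirus that overexpresses p27 (gene Cdkn1b), a protein that blocks cyclin-dependent kinases, and was harvested at day 4, when the submitters class the cells as non-senescent. The other group, EV control (3 libraries), was also harvested at day 4. The labels do not spell out EV, and they give neither the promoter that drives p27 nor the share of cells that took up the virus. The comparison here was of gene expression in p27 OE with that in EV control at day 4.

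The lamina is a mesh of intermediate filament proteins under the inner nuclear membrane. A-type lamins, lamin A and lamin C, come from Lmna, and B-type lamins from Lmnb1 and Lmnb2. The lamin B receptor (Lbr) and the lamina-associated polypeptide 2 proteins (Tmpo) tie the lamina and heterochromatin to the membrane. HMG box proteins (Hmgb1, Hmgb2) bend DNA, and HMGA proteins (Hmga1, Hmga2) bind AT-rich DNA through short AT hooks. In senescent fibroblasts lamin B1 and HMGB2 are lost, HMGB1 leaves the nucleus and HMGA proteins gather in heterochromatin foci. Several of these genes, Lmnb1, Tmpo and Hmgb2 among them, are also expressed more in dividing cells.

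Total counts per library ran from 34920728 to 52098220. Cdkn1b was at 419, 978 and 460.0 CPM (counts scaled to the size of the library) in p27 OE 1, 2 and 3, against 52.2, 49.9 and 51.2 CPM in EV control 1, 2 and 3. Although 8.02, 19.6 and 8.99 times higher in p27 OE in pairs 1, 2 and 3, Cdkn1b itself was called in neither edgeR fit (adjusted p 0.180 without pairing and 0.0873 paired by number). These counts do not tell the cell's own transcript from that of the virus. Both libraries numbered 1 stood apart from the other 4 on the first principal component, which held 58.9% of the variance. The X-inactivation RNA Xist was at 477 CPM in p27 OE 1 and 317 CPM in EV control 1, and at most 9.57 CPM in the other 4. Among those it was at 9.57 CPM in p27 OE 2 and 5.93 CPM in EV control 2. In p27 OE 3 and EV control 3 it was at 0.504 and 0.601 CPM. The Y-linked gene Ddx3y was the reverse, at 0.0220 CPM in p27 OE 1 and 0.0556 CPM in EV control 1, and at 54.3 CPM or more in the other 4. The collagen gene Col1a1, a fibroblast marker, was at 22730 CPM or more in every library. Macrophage markers summed to between 38.7 and 69.1 CPM in p27 OE and between 42.2 and 52.4 CPM in EV control. The 4 endothelial markers summed to between 2.82 and 3.58 CPM in p27 OE and between 2.03 and 3.54 CPM in EV control, nearly all of it Kdr and Tek, with Pecam1 and Cdh5 at most 0.157 CPM in any library. The 4 epithelial markers summed to between 9.39 and 9.65 CPM in p27 OE and between 10.6 and 12.0 CPM in EV control, nearly all of it the keratin genes Krt8 and Krt18, with Epcam and Cdh1 at most 0.2002 CPM. The 4 neural markers summed to between 61.7 and 84.3 CPM in p27 OE and between 41.8 and 68.9 CPM in EV control, mostly Tubb3 and Map2, with Elavl3 at 0. The part of other cell types in the results was not tested.

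The differences at these genes were small, and those called were called only with libraries paired by number. Within libraries of the same number, Tmpo fell in p27 OE to 0.848 of the EV control level (95% interval 0.770 to 0.933) and Hmga2 rose to 1.16 times that level (1.06 to 1.26). Hmgb1, Lbr and Lmnb1 were lower in p27 OE in each of the 3 pairs, but did not pass the test. Lmna, Lmnb2 and Hmgb2 were higher in p27 OE in some pairs and lower in others, and Hmga1 had few reads. In all, 4 genes were lower in every pair, as 23.6% of all genes were, and 2 (Hmga1 and Hmga2) were higher in every pair, as 21.8% were. Tests were run with edgeR over all 14090 genes, and a gene was called at an adjusted p under 0.05. Without pairing, 0 of the 9 genes and 0 of all genes (0%) were called. At an unadjusted p under 0.05 the unpaired fit had 0 of the 9 genes, against 7.22% of all genes, and DESeq2 without pairing called 0 of the 9, against 0.671% of all genes. With the library number as a block, 2 of the 9 were called, against 7.43% of all genes: 1 gene was called higher, against 3.8% of all genes, and 1 lower, against 3.63%. Over all genes that was 535 higher and 512 lower, or 483 higher and 736 lower with upper quartile scaling. In the paired fit 5 of the 9 had an unadjusted p under 0.05, against 23.9% of all genes. Leaving out 1 number at a time, the paired fit called 1 of the 9 higher and 2 lower without number 1, against 6.36% and 6.04% of all genes (12.4% in either direction). It called 0 of the 9 without number 2, against 3.51% of all genes higher and 2.97% lower (6.48% in either direction), and 0 without number 3, against 1.58% higher and 0.746% lower (2.32% in either direction). Separate cultures are not stated in the labels, and the p-values therefore describe the spread among these 6 libraries. Unpaired, that spread includes the difference of both libraries numbered 1 from the rest; how much of what remains within numbers is technical was not tested. In bulk RNA, fewer cells that express a gene and less of its RNA per cell cannot be told apart.

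**Figure D1:**
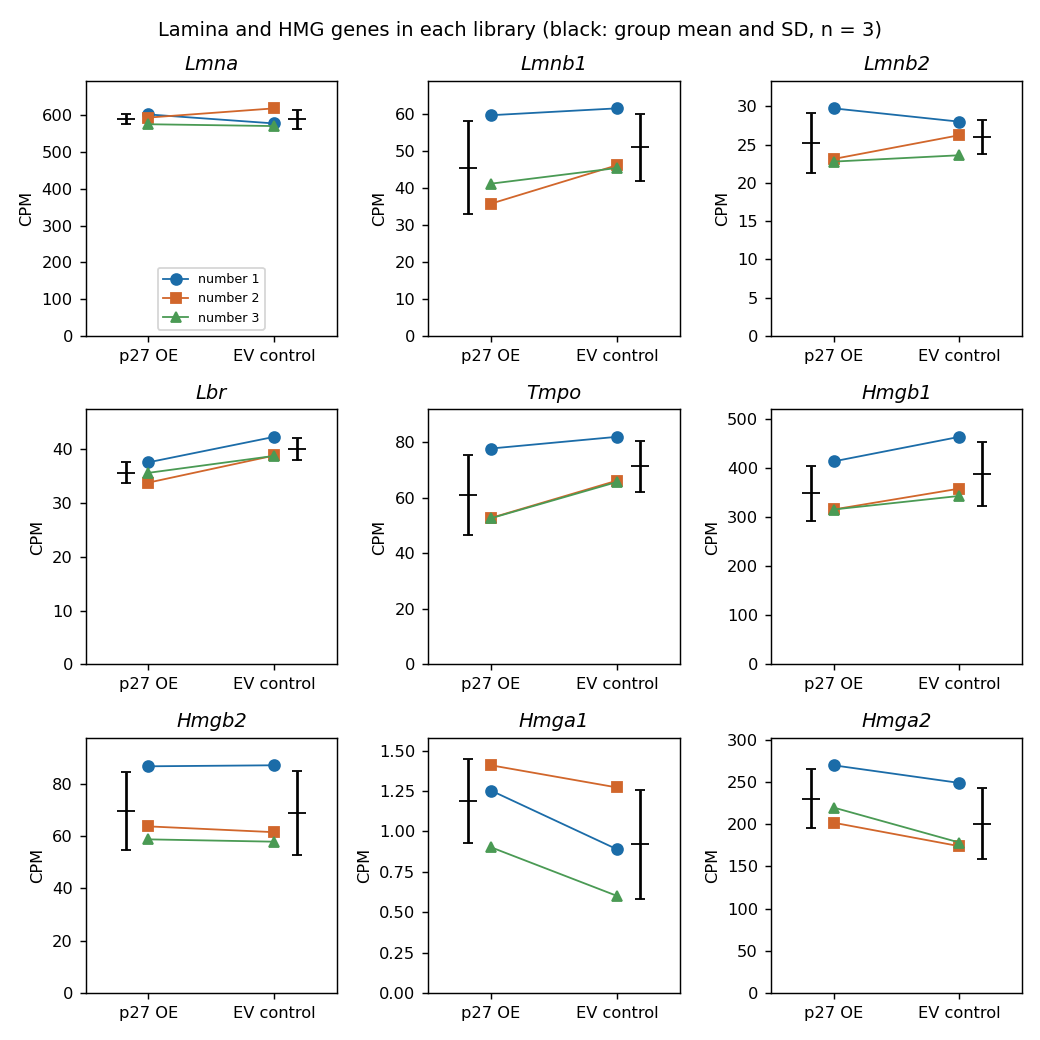
Level of each of the 9 genes (y axis, CPM, starting at 0) in the 3 p27 OE libraries (left) and the 3 EV control libraries (right). Lines join libraries of the same number, and black bars give the group mean and SD (n = 3). In Tmpo the 3 lines all run lower in p27 OE, but p27 OE 1, at 77.7 CPM, is above EV control 2 and 3.

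**Figure D2:**
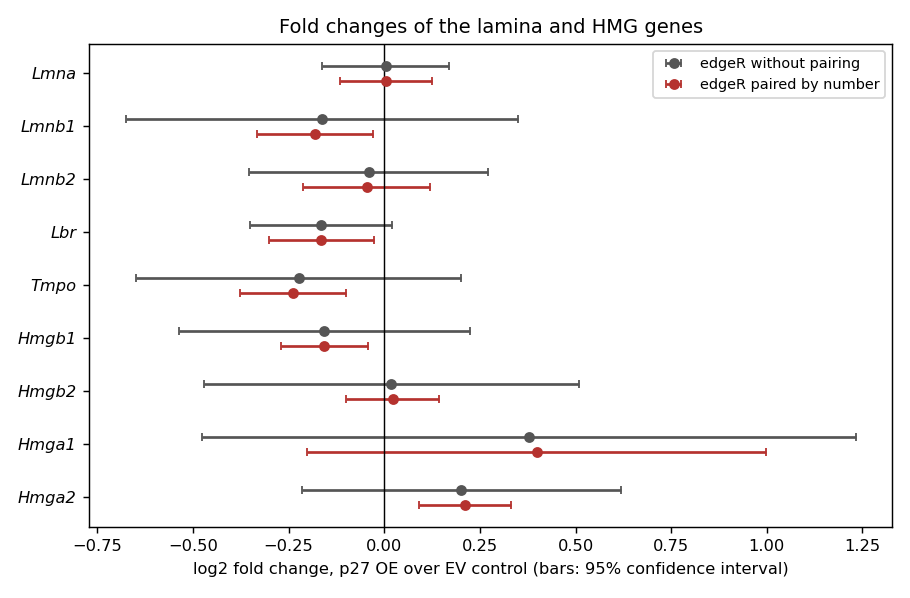
Log2 fold change, p27 OE over EV control (x axis), of each gene from edgeR without pairing (grey) and paired by library number (red), with 95% confidence intervals. Paired intervals are narrower, and those of Tmpo (-0.38 to -0.10) and Hmga2 (0.09 to 0.33) lie farthest from 0.

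Lmna, which encodes the A-type lamins, showed no difference past the test. It was at 602, 594 and 576 CPM in p27 OE 1, 2 and 3, against 578, 619 and 571 CPM in EV control 1, 2 and 3. The groups overlapped almost fully. The paired edgeR log2 fold change was 0.00 ± 0.06 (SE, n = 3 pairs, adjusted p 0.975), with a 95% interval of the fold from 0.923 to 1.09. Counts per gene add lamin A and lamin C together, so a shift between them would not be seen here.

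Lmnb1, the B-type lamin gene whose loss is used as a mark of senescence, was at 59.7, 35.8 and 41.2 CPM in p27 OE 1, 2 and 3, against 61.5, 46.1 and 45.4 CPM in EV control 1, 2 and 3. It was lower in p27 OE in every pair, with log2 ratios of -0.04, -0.37 and -0.14 in pairs 1, 2 and 3, while p27 OE 1 stayed above 2 of the EV control libraries. Without pairing the edgeR log2 fold change was -0.16 ± 0.21 (SE, adjusted p 0.934), a fold between 0.626 and 1.27 at 95%. The paired edgeR log2 fold change was -0.18 ± 0.07 (SE, n = 3 pairs, adjusted p 0.137), a fold between 0.794 and 0.980 at 95%. These intervals are not adjusted for the number of genes tested. In the paired fit without the libraries numbered 1, Lmnb1 was among the 6.04% of genes called lower (log2 fold change -0.25, adjusted p 0.0337). Without those numbered 2 the paired log2 fold change was -0.09 (adjusted p 0.633). Lmnb2, which encodes lamin B2, was at 29.7, 23.1 and 22.8 CPM in p27 OE 1, 2 and 3, against 28.0, 26.2 and 23.6 CPM in EV control 1, 2 and 3. It was higher in p27 OE in pair 1 and lower in pairs 2 and 3 (paired edgeR log2 fold change -0.05 ± 0.08, adjusted p 0.768).

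Tmpo encodes the lamina-associated polypeptide 2 proteins, of which the membrane forms bind B-type lamins and the alpha form binds A-type lamins and the retinoblastoma protein. The gene lies on chromosome 10 from 91147571 to 91181315, reverse strand (GRCm38). It was at 77.7, 52.7 and 52.6 CPM in p27 OE 1, 2 and 3, against 81.9, 66.2 and 65.7 CPM in EV control 1, 2 and 3. Each p27 OE library was below the EV control library of its number, with log2 ratios of -0.08, -0.33 and -0.32, and the groups overlapped through p27 OE 1. The group means were 61.0 ± 14.5 CPM in p27 OE and 71.2 ± 9.25 CPM in EV control (SD, n = 3 each). The paired edgeR fit gave a log2 fold change of -0.24 ± 0.06 (SE, n = 3 pairs, adjusted p 0.0404), and the unpaired fit -0.22 ± 0.18 (adjusted p 0.847). The paired call was lost without the libraries of some numbers: the adjusted p was 0.149 and 0.302 without the libraries numbered 2 or 3, and 0.00247 without those numbered 1. It was also lost in paired fits with DESeq2 (adjusted p 0.0750) and limma-voom (adjusted p 0.0673).

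Lbr, the lamin B receptor, which binds heterochromatin and also acts in sterol synthesis, was the one gene of the 9 whose groups did not overlap, as happened lower in p27 OE at 8.28% of all genes and higher at 6.61%. It was at 37.6, 33.8 and 35.7 CPM in p27 OE 1, 2 and 3, against 42.4, 38.9 and 38.8 CPM in EV control 1, 2 and 3. The means were 35.7 ± 1.89 CPM in p27 OE and 40.0 ± 2.03 CPM in EV control (SD, n = 3 each). The 3 pairs gave close log2 ratios of -0.17, -0.20 and -0.12. The edgeR log2 fold change was -0.16 ± 0.08 without pairing (adjusted p 0.704) and -0.16 ± 0.06 with it (adjusted p 0.136), so Lbr was called in neither fit.

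**Figure D3:**
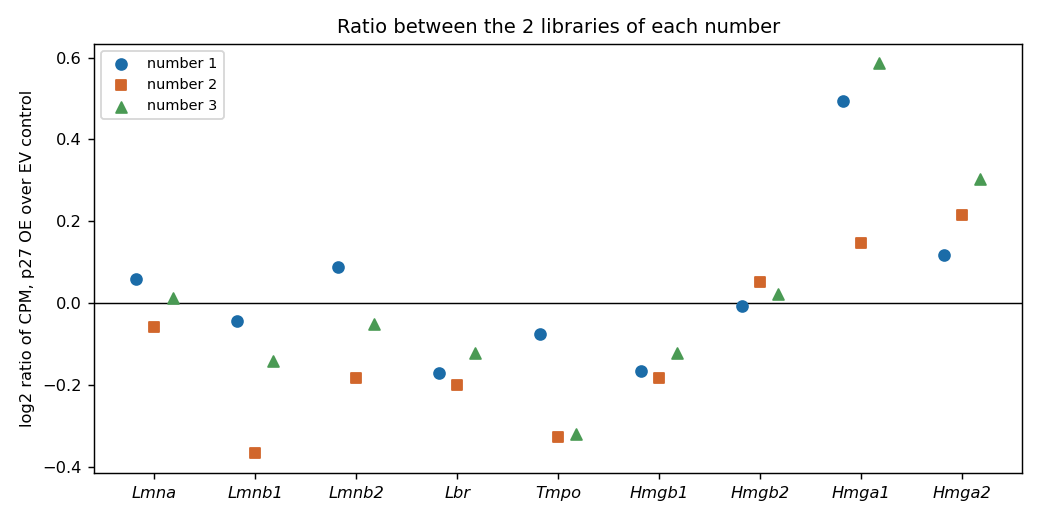
Log2 ratio of CPM, p27 OE over EV control (y axis), between the 2 libraries of number 1 (blue circles), 2 (orange squares) and 3 (green triangles) for each gene. Lbr and Hmgb1 gave nearly the same ratio in the 3 pairs, and the ratio of Lmnb1 ran from -0.37 to -0.04.

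Hmgb1 and Hmgb2 encode the abundant HMG box proteins, and neither was called. Hmgb1 was at 414, 316 and 316 CPM in p27 OE 1, 2 and 3, against 464, 359 and 344 CPM in EV control 1, 2 and 3. It was lower in every pair, with log2 ratios of -0.16, -0.18 and -0.12 in pairs 1, 2 and 3 (paired edgeR log2 fold change -0.16 ± 0.05, SE, n = 3 pairs, adjusted p 0.0905). Without pairing the edgeR log2 fold change of Hmgb1 was -0.16 ± 0.16 (adjusted p 0.887). Hmgb2, whose loss marks senescent fibroblasts, was at 86.7, 63.7 and 58.7 CPM in p27 OE 1, 2 and 3, against 87.1, 61.5 and 57.9 CPM in EV control 1, 2 and 3. Its values were nearly equal within each number, and the paired edgeR log2 fold change was 0.02 ± 0.06 (adjusted p 0.854), a fold between 0.934 and 1.10 at 95%. Per kilobase of exon, the Hmgb1 level was 2.86, 2.97 and 3.22 times that of Hmgb2 in p27 OE 1, 2 and 3, against 3.19, 3.49 and 3.55 times in EV control 1, 2 and 3. The ratio was lower in p27 OE within each number, and the groups overlapped only between p27 OE 3 and EV control 1. This ratio was not tested. The sources used here do not say how reads matching several genes were treated, and of the 50-base words in Hmgb1 transcripts 22.7% also occur in those of 132 other genes (Hmgb2, 18.7% in 9 others). The counts of both genes are uncertain for this reason. These are shares of words and do not measure the share of reads affected.

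Hmga2, an AT-hook protein of growing embryonic cells that also helps to form heterochromatin foci in senescence, rose in p27 OE in the paired fit. It was at 269.8, 202 and 219.7 CPM in p27 OE 1, 2 and 3, against 249, 174 and 178 CPM in EV control 1, 2 and 3. Every p27 OE library was above the EV control library of its number, by 0.12, 0.21 and 0.30 on the log2 scale, although EV control 1 was above p27 OE 2 and 3. The means were 230.4 ± 35.3 CPM in p27 OE and 200.3 ± 42.1 CPM in EV control (SD, n = 3 each). The paired edgeR fit gave a log2 fold change of 0.21 ± 0.06 (SE, n = 3 pairs, adjusted p 0.0376), and the unpaired fit 0.20 ± 0.17 (adjusted p 0.863). The paired adjusted p was 0.0656 and 0.374 without the libraries numbered 2 or 3, and 0.00353 without those numbered 1. With limma-voom and pairing it was 0.0509, and with DESeq2 and pairing 0.0311. The gene lies on chromosome 10 from 120361275 to 120476469, reverse strand (GRCm38).

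Hmga1, the relative of Hmga2, had only 57, 54 and 34 reads in p27 OE 1, 2 and 3, against 48, 45 and 30 reads in EV control 1, 2 and 3. That was 1.25, 1.41 and 0.901 CPM in p27 OE and 0.889, 1.27 and 0.601 CPM in EV control. The paired edgeR log2 fold change of 0.40 ± 0.28 (adjusted p 0.420) had a 95% interval that spans 0, although Hmga1 was higher in p27 OE in every pair. Its counts are uncertain, because 55.0% of the 50-base words in Hmga1 transcripts (GENCODE M21), and 40.1% of the 100-base words, also occur in transcripts of other genes. For Hmga2 the shares with any other gene were 2.73% and 0.650%, and for Lmnb1 both were 0%. Lbr shared 8.41% of its 50-base words and Tmpo 1.82%. A share can come from a transcript on the other strand.

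**Figure D4:**
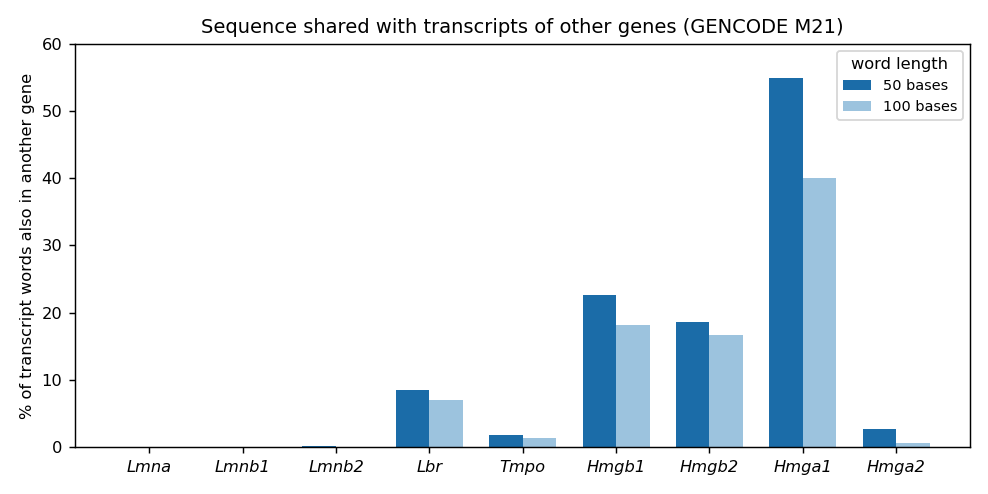
Share of the 50-base (dark) and 100-base (light) words in each gene's GENCODE M21 transcripts that also occur in transcripts of another gene, on either strand (y axis, %). Hmga1 stands at 55.0% for 50-base words, Hmgb1 at 22.7% and Hmgb2 at 18.7%, while Lmna, Lmnb1 and Lmnb2 are at or near 0.

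Levels can be compared between genes only per length. The length used joins the exons of all GENCODE M21 transcripts of a gene, whichever of them these cells express. The order and ratios of genes depend on that choice. Levels were taken as CPM per kilobase of this length. On that scale Lmna was highest, at 101 ± 2.33 in p27 OE and 101 ± 4.45 in EV control (SD, n = 3 each). Hmgb1 followed at 69.4 ± 11.3 in p27 OE and 77.4 ± 13.1 in EV control, then Hmga2 at 34.0 ± 5.21 and 29.6 ± 6.22. Hmgb2 was at 23.2 ± 4.97 in p27 OE and 22.9 ± 5.31 in EV control, and Lmnb1 at 15.4 ± 4.23 and 17.2 ± 3.07. Each of these genes was above the next in this order in all 6 libraries. Lbr, at 7.50 ± 0.397 in p27 OE and 8.41 ± 0.426 in EV control, was above Tmpo in all 6, whereas Tmpo (5.55 ± 1.31 and 6.48 ± 0.841) was above Lmnb2 (5.88 ± 0.915 and 6.05 ± 0.515) in 3 of 6. Those 2 genes could not be placed in order. A-type lamin RNA per kilobase was 3.81, 5.82 and 5.13 times the sum of Lmnb1 and Lmnb2 in p27 OE 1, 2 and 3, against 3.62, 4.89 and 4.69 times in EV control 1, 2 and 3. The ratio was higher in p27 OE within each number, and the groups overlapped through p27 OE 1. It was not tested.

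Levels of these genes also differed by library number. Both libraries numbered 1 were above the other 4 in 6 of the 9 genes, namely Lmnb1, Lmnb2, Tmpo, Hmgb1, Hmgb2 and Hmga2, as they were in 24.5% of all tested genes. A list of 16 proliferation genes moved the same way: it summed to 1007 CPM in p27 OE 1 and 867 CPM in EV control 1, against 643 and 690 CPM in p27 OE 2 and 3 and 696 and 688 CPM in EV control 2 and 3. The paired fit called 0 of these 16 genes in either direction, against 7.43% of all genes. Mki67, the antigen Ki-67 of dividing cells, was at 119, 63.3 and 69.7 CPM in p27 OE 1, 2 and 3, against 73.5, 61.9 and 62.8 CPM in EV control 1, 2 and 3. It did not pass the test (paired edgeR log2 fold change 0.30 ± 0.14, adjusted p 0.304), but leaving out the libraries numbered 2 gave a log2 fold change of 0.43 (adjusted p 0.00585). Without the libraries numbered 1 the log2 fold change was 0.09 (adjusted p 0.395). The part of proliferation in the values of the lamina and HMG genes was not tested.

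Promoter sequence was looked at for motifs of dividing cells. RefSeq start sites (GRCm38.p6) were found for 8 of the 9 genes, all but Lmnb1, 13 sites in all, and the 100 bases before each were searched on both strands. The words were TTTGAA, the cell cycle genes homology region (CHR), CCAAT, the CCAAT box bound by NF-Y, and the E2F words TTTCGCGC, TTTGGCGC and TTTCCCGC. CHR words were found at 3 sites, 1 each of Lbr, Tmpo and Hmgb2, and occur in 5.77% of all windows of this length. CCAAT was found at 4 sites, 1 each of Lbr, Tmpo, Hmgb1 and Hmgb2, against 18.9% of all windows. E2F words were found at 0 sites, against 0.103%, 0.186% and 0.399% of all windows in the order given above. Hmga2, which was called higher only with pairing, has none of the words. The windows of the sites with CHR words, and of Hmga2, are printed with matches in capitals. They are Lbr, chr1:181842402-181842501, reverse strand; Tmpo, its second listed site, chr10:91170551-91170650, reverse strand; Hmgb2, chr8:57511743-57511842, forward strand; and Hmga2, chr10:120476470-120476569, reverse strand.
Lbr: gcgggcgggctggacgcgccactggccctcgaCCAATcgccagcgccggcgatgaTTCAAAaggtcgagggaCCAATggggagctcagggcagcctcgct
Tmpo: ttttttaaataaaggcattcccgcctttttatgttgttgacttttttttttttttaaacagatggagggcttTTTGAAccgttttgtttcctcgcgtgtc
Hmgb2: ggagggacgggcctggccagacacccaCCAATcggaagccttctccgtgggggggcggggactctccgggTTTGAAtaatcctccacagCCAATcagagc
Hmga2: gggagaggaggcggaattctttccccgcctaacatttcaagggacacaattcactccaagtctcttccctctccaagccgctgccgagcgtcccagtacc
The CHR word begins 45 bases before the start of Lbr, 28 before the second listed start site of Tmpo and 30 before the start of Hmgb2. In Lbr it reads as its reverse complement, TTCAAA. The windows of both listed Tmpo sites lie inside the span given above for the gene. That of the first, chr10:91171620-91171719, has 2 matches, both CCAAT, and no CHR word. The genes that share the CHR word differed in the comparison: Tmpo fell in the paired fit, Lbr was lower in every pair without passing the test, and Hmgb2 was at a log2 fold change of 0.02. A match is a description of the letters and not a site of binding.

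Proteins of the nuclear envelope that work with the lamina were taken as a list of 20 genes. In the paired edgeR fit 1 rose, 2 fell and 17 were not called, where 3.8% of all genes were called higher and 3.63% lower, with a median log2 fold change of 0.01 against -0.0012 over all genes and -0.05 over the 9 genes themselves. Tpr, the protein of the nuclear pore basket, rose (0.29 ± 0.06, SE, n = 3 pairs, adjusted p 0.0131). It was at 193, 164 and 170.3 CPM in p27 OE 1, 2 and 3, against 139.8, 143 and 146 CPM in EV control 1, 2 and 3. Its groups did not overlap, and it was called without the libraries of any 1 number (highest adjusted p 0.0454). Syne3, which encodes nesprin-3, a link between the nuclear membrane and cytoplasmic filaments, fell by 0.31 ± 0.08 (adjusted p 0.0390), and Tmem43, an inner nuclear membrane protein, fell by 0.20 ± 0.05 (adjusted p 0.0360). Without the libraries numbered 2 or 3 the adjusted p of Syne3 was 0.134 and 0.243, and that of Tmem43 0.0986 and 0.311. With pairing, Syne3 was also lost with DESeq2 (adjusted p 0.0770) and limma-voom (0.0827), and Tmem43 was called with both (0.0455 and 0.0456). Of 6 genes for the processing or binding of prelamin A 0 were called, and the smallest p belonged to Narf, whose product binds prelamin A (-0.19, adjusted p 0.0940), the methyltransferase gene Icmt (0.15, adjusted p 0.110) and the farnesyltransferase subunit gene Fntb (-0.19, adjusted p 0.128). Narf was called when the libraries numbered 1 were left out (adjusted p 0.0413).

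Of 9 other HMG genes 0 were called in the paired edgeR fit, against 7.43% of all genes, and the list median log2 fold change was -0.09. Hmgb3 was at -0.25 ± 0.08 (adjusted p 0.0764). The nucleosome-binding gene Hmgn1 was at -0.15 ± 0.05 (adjusted p 0.0958), with groups that did not overlap: 254, 246 and 242 CPM in p27 OE 1, 2 and 3, against 279, 273 and 273 CPM in EV control 1, 2 and 3. Hmgn2 was at -0.15 ± 0.06 (adjusted p 0.154), and 25.4% of its 50-base words occur in other genes. In the paired fit 3.8% of all genes were called higher. From a list of 7 genes of the let-7 path that limits Hmga2 and the Igf2bp genes, 5 were tested and 1 rose. It was Igf2bp1, an RNA-binding protein gene, at 44.2, 40.0 and 41.2 CPM in p27 OE 1, 2 and 3, against 38.1, 30.8 and 37.4 CPM in EV control 1, 2 and 3 (0.24 ± 0.07, adjusted p 0.0484). Its groups did not overlap, and its call was lost when the libraries numbered 2 or 3 were left out (adjusted p 0.225 and 0.113). With pairing it was also lost with upper quartile scaling (adjusted p 0.0599), DESeq2 (0.0842) and limma-voom (0.0677). Igf2bp2, a known target of Hmga2, was at -0.03 ± 0.05 (adjusted p 0.815). Igf2bp2 was chosen for naming after its values were seen.

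Among 17 heterochromatin genes, Atrx, a chromatin remodeller, rose by 0.23 ± 0.06 (paired edgeR, adjusted p 0.0317) and the other 16 were not called. The share called over all genes was 7.43%, and the list median was -0.06. The call of Atrx was lost when the libraries numbered 1 or 3 were left out (adjusted p 0.0682 and 0.168). Of 16 other senescence markers 4 rose, 1 fell and 11 were not called, where 3.8% of all genes were called higher and 3.63% lower, with a list median log2 fold change of 0.23. Igfbp7 rose by 0.32 ± 0.06 and Igfbp3 fell by 0.29 ± 0.06 (adjusted p 0.0104 and 0.0102), both insulin-like growth factor binding protein genes. Leaving out the libraries numbered 3 gave an adjusted p of 0.0631 for Igfbp7 and 0.177 for Igfbp3. The chemokine gene Cxcl1 rose by 1.78 ± 0.39 (adjusted p 0.0270), with 8.09 CPM its highest value in any library, and Trp53, the gene of p53, by 0.26 ± 0.07 (adjusted p 0.0360). Both calls were lost when the libraries numbered 2 or 3 were left out (Cxcl1, adjusted p 0.219, at a log2 fold change of 0.96, and 0.167; Trp53, adjusted p 0.127 and 0.247). That of Trp53 was also lost with limma-voom and pairing (adjusted p 0.0587).

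**Figure D5:**
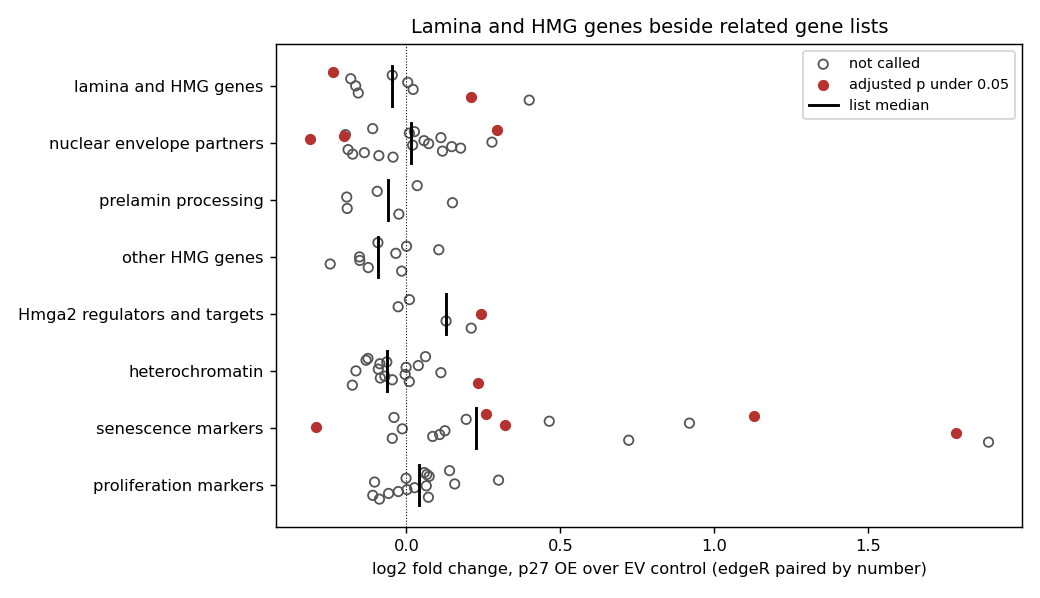
Log2 fold change, p27 OE over EV control, from edgeR paired by number (x axis), of every tested gene in the 9 lamina and HMG genes and in 7 related lists. Filled red points had an adjusted p under 0.05, open points did not, and black bars are list medians, which run from -0.09 in other HMG genes to 0.23 in senescence markers.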

How the data were processed

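RNA from 6 libraries (3 p27 OE, 3 EV control) was purified on columns and made into TruSeq libraries, per the labels' protocols. The authors deposited raw, unnormalized read counts per gene symbol. Named in the submitters' processing notes are featureCounts 1.4.6 (Subread), TopHat2 2.0.14, Bowtie2 2.2.6 and build mm10. Annotation, strandedness and multi-mapping rule: not given in the sources used here. All 6 columns matched a sample title, and 0 were left out.

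Genes were kept with edgeR's filterByExpr (minimum count 10, minimum total 15) and scaled by TMM. The two-sided quasi-likelihood F test (edgeR 4.0.16, R 4.3.3, robust fit) had Benjamini-Hochberg adjustment over 14090 genes, and the SE comes from its F statistic. The main fit has no block. The paired fit adds the library number, shared by titles: the deviations of libraries 1, 2 and 3 from their group means correlated at 0.77, 0.42 and 0.54 with those of the same number, each over 0.1. Numbers 2 and 3 also correlated across groups (0.41 and 0.39), so passing 0.1 does not tell how the libraries of these 2 numbers match. Alternatives were other scalings and filters, DESeq2 1.42.0, limma-voom (limma 3.58.1) and leaving out libraries. Within groups, library pairs exceeded counting noise (lowest mean chi-square per gene 9.67). The fits were tested on simulated data.

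All 9 members are named, and from each other list the genes called in either fit or otherwise the 3 with the smallest paired p. Some of these are not reported here. The members and lists were chosen with earlier results of these data known. With 3 libraries a group, an exact permutation test cannot give a p under 0.1 and was not used.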

Additional observations from a re-analysis of the deposited data

How the results depend on the processing

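Values are log2 fold changes or counts of genes called. Lbr, Hmgb1 and Hmga1 kept their direction and were not called under any of the 22 alternatives. Hmga2 and Tmpo kept their direction in all 22, and were called in 7 and 6 of them, all with the replicate block. Unpaired edgeR called 0 genes. Unpaired DESeq2 called 53 higher and 36 lower, and leaving out the filter 1 higher. Leaving out single libraries gave 0 to 1 higher and 0 to 0 lower.

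The replicate block called 535 genes higher and 512 lower, 1 of the 9 higher and 1 lower. With the block, the counts were 567 and 475 with RLE scaling, 483 and 736 with upper quartile scaling, 689 and 727 with no filter, 543 and 475 with at least 1 CPM in at least 3 libraries (1 and 1 of the 9 in each). They were 479 and 351 with DESeq2 (1 and 0 of the 9) and 457 and 372 with limma-voom (0 and 0 of the 9). In paired fits they were 893 and 848 without the libraries numbered 1 (1 and 2 of the 9), 503 and 425 without those numbered 2 and 224 and 106 without those numbered 3 (0 and 0 of the 9 in each). These rest on 2 pairs. Lmnb1 was called only without the libraries numbered 1. Upper quartile scaling moved the split towards lower calls.

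Genes near 0 changed sign. Lmna was at -0.0167 with upper quartile scaling, -0.000555 with no filter, -0.0164 with the block and upper quartile scaling, -0.0239 and -0.00023 with the block and without the libraries numbered 1 or 3, and -0.0176 to 0.0401 without single libraries. Lmnb2 was at 0.0240 with the block and without the libraries numbered 2, and ran from -0.178 to 0.0256 without single libraries. Hmgb2 was at -0.00196 with upper quartile scaling and from -0.17 to 0.22 without single libraries. In the unpaired fit without single libraries, Syne3 ran from -0.70 to 0.0011, Hmgn2 from -0.55 to 0.29, Igfbp3 from -0.75 to 0.15, Mcm5 from -0.32 to 0.60, Tyms from -0.16 to 0.39 and Pdgfra from -1.01 to 0.0371. The cause was not tested.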

Other observations

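Among 10608 other genes averaging 5 CPM or more, those whose centred log2 CPM over the 6 libraries lay closest to Lmnb1 were Pqbp1, Adamts1 and Tvp23a (root mean square distance 0.046 to 0.051). Closest to Hmgb2 were Pgd, Sppl2b and Gpr153 (0.029 to 0.035), and to Hmga2 the imprinted noncoding RNA gene Rian, Zfml and Copa (0.031 to 0.038). These are descriptions of 6 libraries, in which both libraries numbered 1 stand apart. Other markers called in the paired edgeR fit were the fibroblast gene Pdgfra, which fell by 0.48 ± 0.06 (adjusted p 0.00057), Tubb3, a tubulin gene on the list of 4 neural markers, which rose by 0.63 ± 0.08 (adjusted p 0.0016), and the macrophage gene Emr1, which rose by 0.77 ± 0.20 (adjusted p 0.0326). The call of Emr1 was lost when number 2 or 3 was left out (0.188 and 0.0658) and, with pairing, with DESeq2 and limma-voom (0.0514 and 0.0526). The part of these 3 markers in the values of the lamina and HMG genes was not tested. The other tested markers of their lists were not called. Of the macrophage genes, Cd68 was lower in every pair (paired log2 fold change -0.49), Lyz2 was at 0.02, Csf1r at 0.47 and Ptprc at 1.02. Among fibroblast genes, Thy1 and Col1a1 were higher in every pair (0.18 and 0.15) and Col3a1 and Vim lower (-0.15 and -0.06). Col1a2 was at 0.06 and Pdgfrb at -8.7e-05. The neural genes Map2 and Sox10 were at -0.0026 and -0.84. Of the proliferation genes, Mcm5 and Tyms, with Mki67 those of smallest paired p, were at 0.16 and 0.14 (adjusted p 0.281 and 0.296).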
